A study of Mus musculus with 3 samples.

Results

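Of the 31053 genes in the count tables of mouse cochlear organoids, 7 are described here: Bdnf, Ntf3, Ngfr, Ntrk2, Ret, Gfra1 and Gdnf, which encode ligands and receptors of the neurotrophin and GDNF pathways. They were taken by gene symbol, and all 7 were found. The organoids were 3-dimensional cultures of C57BL/6 cochlear progenitor cells that carry Lgr5, the R-spondin receptor of epithelial stem and progenitor cells. Each of the 3 groups was 1 single-cell library of UMI counts (unique molecular identifiers, each standing for 1 captured RNA molecule). The expansion library came from passage 2, day 8, in a medium with EGF at 20, bFGF at 10 and IGF at 50 ng/mL plus CHIR99021, Y-27632 and LPA. The day 5 and day 25 libraries came from organoids moved to a differentiation medium that held the growth factors bFGF, Shh and BDNF with RA and A83-01, and LY4115775 for the first 5 days. BDNF protein, the product of one of the 7 genes, was thus supplied in differentiation and was not listed for expansion. Organoids were taken apart by 25 min in 0.125% trypsin, and living single cells were sorted.

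Neurotrophins are secreted growth factors, made as proneurotrophins and cut by proteases, that keep neurons alive and guide their fibres. BDNF acts through the receptor tyrosine kinase TrkB, encoded by Ntrk2, and neurotrophin-3, encoded by Ntf3, acts mainly through TrkC, while p75NTR, encoded by Ngfr, binds all neurotrophins and their uncut forms. In the mammalian cochlea BDNF from hair cells and neurotrophin-3 from supporting cells support the spiral ganglion neurons that innervate them. GDNF acts through a binding subunit anchored in the membrane, encoded by Gfra1, and the receptor kinase encoded by Ret, a pathway best known from the kidney and the enteric nervous system.

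Cells were compared in 3 classes. Pou4f3-positive cells held at least 2 UMIs of Pou4f3, a transcription factor of hair cells, and numbered 163 in expansion, 324 on day 5 and 1535 on day 25. Otor-high cells held at least 20 UMIs per 10000 of Otor, an otic mesenchyme gene, and numbered 2395, 4431 and 355 at those stages. Other Epcam-positive cells, which carry the epithelial surface gene Epcam and belong to neither other class, numbered 14366, 6587 and 3679. Levels are CPM, computed from the UMIs of a gene summed over the cells of a class and scaled to the total UMIs of that sum, with 95% exact Poisson intervals that cover counting error only. With 1 library per group nothing was tested, and a difference between groups cannot be told apart from a difference between libraries.

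The libraries kept 6111 to 25853 cells, with a median of 4693 to 8475 UMIs per cell. Doublets were called in 2.44% to 7.65% of cells, against 5.29% to 23.3% expected from the number of barcodes, so doublets remain. Between 21 and 108 kept cell barcodes were shared by each pair of libraries. Pou4f3-positive cells had 17 of 20 hair cell markers at 5 CPM or more in expansion, 19 on day 5 and 20 on day 25, and the outer hair cell markers Slc26a5 and Ocm were at 0 in expansion. Otor-high cells had 9 of 16 mesenchyme markers at that level in expansion, with Col1a1 and Postn at 0, and 15 of 16 on day 5 and on day 25, with Col1a1 again at 0 on day 25. The hair cell list holds Pou4f3 and the mesenchyme list holds Otor, which reach this level through the class rules themselves. Of 12 glia or Schwann cell genes, 5, 4 and 2 were at 5 CPM or more in Pou4f3-positive cells of expansion, day 5 and day 25, 2, 5 and 2 in Otor-high cells, and 6, 6 and 5 in other Epcam-positive cells, with Foxd3 at 0 in each of these.

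Bdnf had its highest level in Pou4f3-positive cells in each library. It measured 87.3 CPM (95% interval 73.3 to 103) there in expansion, 236 CPM (221 to 251) on day 5 and 550.0 CPM (539 to 561) on day 25. Otor-high cells had 1.58, 5.76 and 10.4 CPM of Bdnf at these stages, and other Epcam-positive cells had 1.09, 0.987 and 5.34 CPM. Pou4f3-positive cells thus stood above both other classes in every library. The ratio to other Epcam-positive cells was 80.1-fold in expansion (62.9 to 102), 239-fold on day 5 (192 to 299) and 103-fold on day 25 (91.1 to 117). Within Pou4f3-positive cells day 25 was 2.34-fold above day 5 (2.19 to 2.49). Of all Bdnf UMIs of a library these cells held 37.5% (expansion, where other Epcam-positive cells held 38.6%), 75.3% (day 5) and 96.3% (day 25), and their number was larger at each stage as well.

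**Figure D1:**
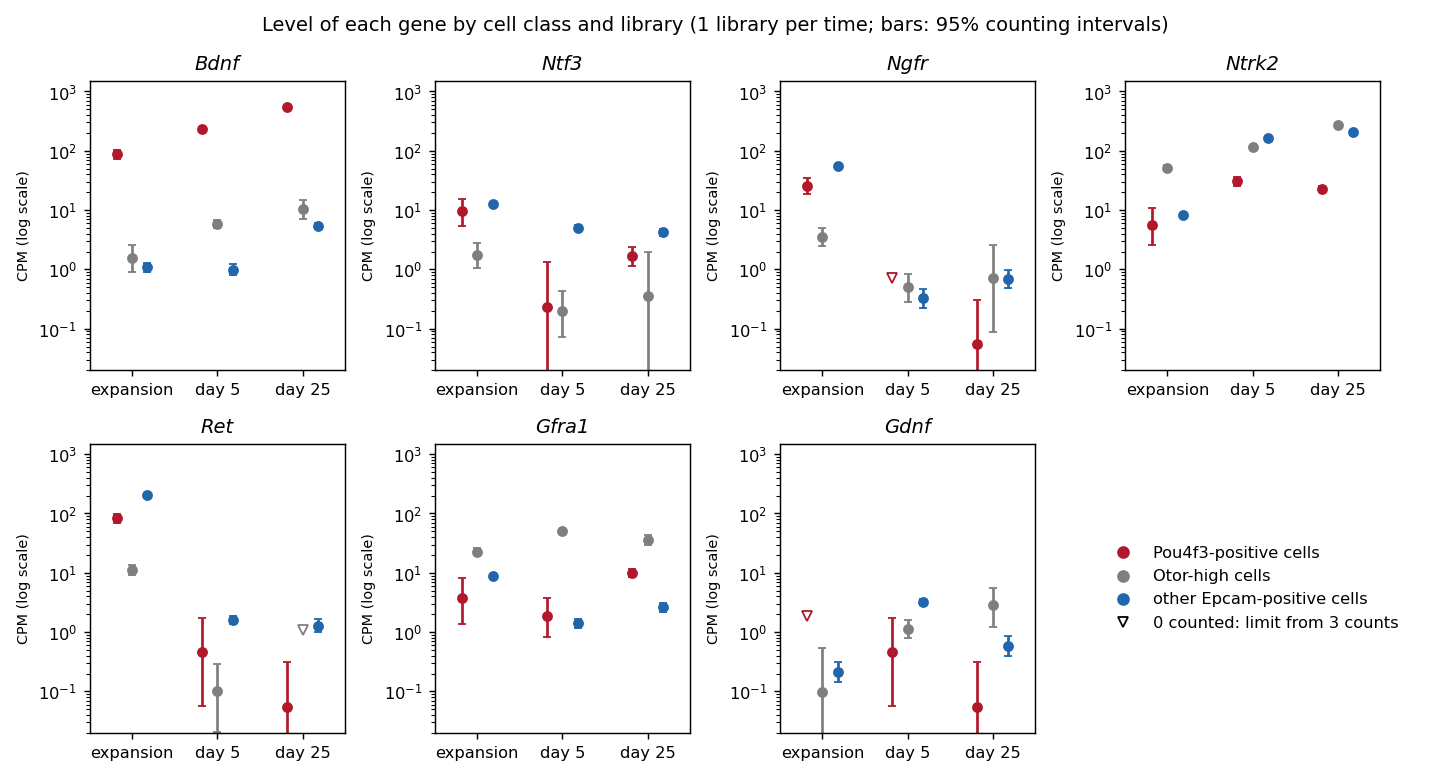
Each panel plots 1 gene in CPM on a log scale for expansion, day 5 and day 25, with 1 point per cell class and library, bars for 95% counting intervals and open triangles for the limit from 3 counts where none was counted. Bdnf is highest in Pou4f3-positive cells at each stage, Ret reaches 205 CPM in other Epcam-positive cells of expansion and 1.62 CPM or less later, and Ntrk2 is lowest in Pou4f3-positive cells on day 5 and day 25, with overlapping intervals of Pou4f3-positive and other Epcam-positive cells in expansion.

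Single Pou4f3-positive cells showed the same order of Bdnf. Among those with at least 2000 UMIs the median cell held 0 Bdnf UMIs per 10000 in expansion, 1.91 on day 5 and 4.0 on day 25. Cells at or above 4 per 10000 made up 6.29%, 13.9% and 50.0%, and cells at or above 8 made up 0.629%, 1.09% and 16.9%. The 10% of cells with the most Bdnf UMIs, not scaled for depth, held 44.9%, 38.8% and 38.1% of these UMIs. The most in a single cell was 6 of 138 in expansion, 24 of 997 on day 5 and 53 of 9939 on day 25.

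**Figure D2:**
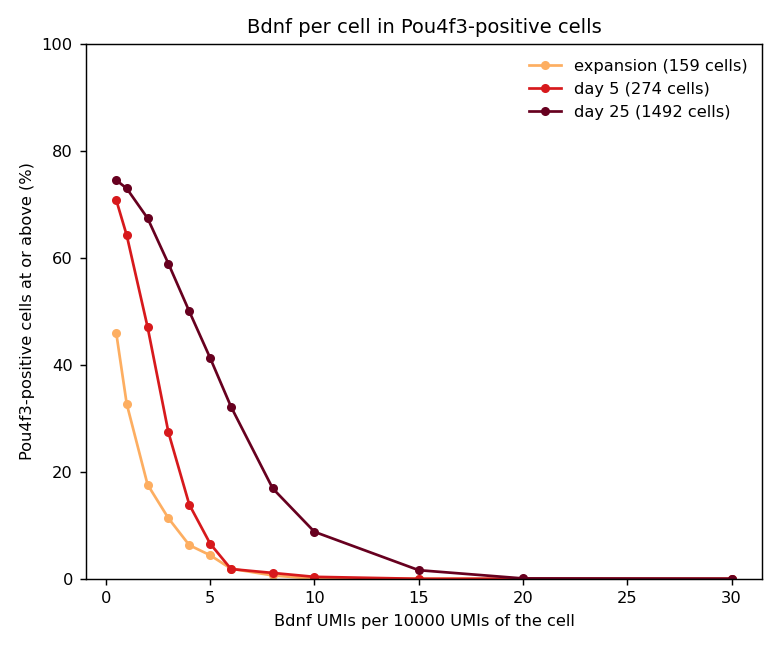
The share of Pou4f3-positive cells with at least 2000 UMIs (y axis, %) that reach a given Bdnf level (x axis, UMIs per 10000 UMIs of the cell), with 1 line per library. At 4 per 10000 the lines stand at 6.29% in expansion, 13.9% on day 5 and 50.0% on day 25.

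In the splits given here Bdnf was higher in Pou4f3-positive cells with UMIs of further hair cell genes. On day 25 it measured 609 CPM (597 to 622) in the 1083 cells with a UMI of Slc26a5, which encodes the outer hair cell motor prestin, and 205 CPM (188 to 223) in the 452 cells without one. On day 5 it measured 250.3 CPM (235 to 267) in cells with a UMI of Otof, the synaptic vesicle gene of hair cells, and 75.1 CPM (49.5 to 109) in cells without one. For Atoh1, the factor that starts hair cell fate, Bdnf was 282 CPM with and 140.3 CPM without a UMI on day 5, and 567 CPM with and 547 CPM without on day 25. The cells without a UMI were shallower, with a median of 4357 UMIs against 11452 in the Slc26a5 split, and the part of depth was not tested. With at least 4 Pou4f3 UMIs asked for, Bdnf was 98.1, 262 and 578 CPM at the 3 stages, and with at least 1 it was 64.7, 127 and 495 CPM.

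Outside Pou4f3-positive cells hair cell markers were counted beside Bdnf. In expansion 38.6% of the Bdnf UMIs lay in other Epcam-positive cells, 4.35% in Otor-high cells and 19.6% in cells of no class. In Otor-high cells on day 5 Bdnf was at 2.44% of its Pou4f3-positive level, above 16 of 17 other hair cell markers (median 0.576%), and Myo6 was higher at 10.5%. In other Epcam-positive cells on day 25 it was at 0.971%, and 19 such markers were at 0.895% to 4.40% (median 1.31%), 2 of them below Bdnf. In other Epcam-positive cells on day 5 Bdnf was at 0.419%, above 1 of 17 markers. Otor-high cells of day 25 had it at 1.89%, above 12 of 19. In expansion it was at 1.25% in other Epcam-positive cells, above 9 of 15 markers, and at 1.81% in Otor-high cells, above 12 of 15. The 41 Epcam-positive cells of day 25 with a UMI of Fgfr3 measured 58.2 CPM (40.1 to 81.7), against 4.72 CPM (4.13 to 5.38) in the 3638 others. Fgfr3, known in supporting cells, was itself at 32.9 CPM in Pou4f3-positive cells of day 25, against 1.35 CPM in other Epcam-positive cells. The part of free RNA, doublets and hair cells below the Pou4f3 threshold in these counts was not tested.

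RefSeq lists 7 start windows for Bdnf (mouse build GRCm38.p6) on the plus strand of chromosome 2, in a gene that the annotation places at chr2:109674700-109727007. Counts from the 3′ end of the RNA do not show which start was used. The windows, from 250 bases before to 50 bases after each start, were searched on both strands for CAGNTG, the E-box letters that basic helix-loop-helix factors such as Atoh1 can bind. Of the 7 windows 3 held it, against 51.4% of all 32851 mouse windows of that length. CAGATG, a narrower form contained in it, was in 1 of 7, against 17.2% of all windows, and ATAATTAAT, a form bound by POU4 factors, was in none, against 0.274%. Shown here are the Bdnf window with CAGATG (chr2:109722671-109722970, plus strand), the window of Ntrk2, which encodes the BDNF receptor (chr13:58806319-58806618, plus strand), and that of Ngfr, a receptor gene that differed from it in direction on day 5 against expansion (chr11:95587649-95587948, minus strand). Capitals mark CAGNTG as read on either strand.
Bdnf: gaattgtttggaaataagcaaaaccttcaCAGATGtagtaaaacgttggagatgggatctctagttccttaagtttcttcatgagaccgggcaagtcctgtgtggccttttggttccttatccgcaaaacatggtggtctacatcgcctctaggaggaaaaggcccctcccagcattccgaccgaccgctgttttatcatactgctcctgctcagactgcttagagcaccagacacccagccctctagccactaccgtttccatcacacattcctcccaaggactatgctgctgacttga
Ntrk2: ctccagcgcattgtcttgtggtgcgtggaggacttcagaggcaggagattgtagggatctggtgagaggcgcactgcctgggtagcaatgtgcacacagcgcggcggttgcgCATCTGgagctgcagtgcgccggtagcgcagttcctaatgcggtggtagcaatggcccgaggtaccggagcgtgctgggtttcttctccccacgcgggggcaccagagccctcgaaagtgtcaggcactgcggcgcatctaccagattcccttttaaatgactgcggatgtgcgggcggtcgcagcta
Ngfr: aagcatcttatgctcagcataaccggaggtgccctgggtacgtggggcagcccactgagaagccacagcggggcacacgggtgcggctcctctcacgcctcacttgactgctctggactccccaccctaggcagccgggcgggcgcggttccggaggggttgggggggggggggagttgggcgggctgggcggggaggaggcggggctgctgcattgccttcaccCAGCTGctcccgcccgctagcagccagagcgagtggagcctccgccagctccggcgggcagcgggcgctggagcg
The matches begin 221 bases before the start in Bdnf, 138 in Ntrk2 and 25 in Ngfr. Such a match describes letters and not binding.

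Ntf3, the other neurotrophin gene, had its highest level in the expansion epithelium. Pou4f3-positive cells had 9.49 CPM in expansion, 0.235 CPM on day 5, from 1 UMI, and 1.71 CPM on day 25, and Otor-high cells had 1.78, 0.200 and 0.358 CPM. Other Epcam-positive cells measured 12.5 CPM (11.9 to 13.1) in expansion, 5.04 CPM (4.59 to 5.53) on day 5 and 4.22 CPM (3.66 to 4.83) on day 25. In these cells day 5 was 2.47-fold lower than expansion (2.22 to 2.74), and day 25 was at 0.836 times the day 5 level (0.706 to 0.987), which is short of 2-fold.

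Within the day 25 epithelium Ntf3 was uneven. Splits by a UMI of a gene, here and in the paragraphs below, favour deep cells, and the part of depth was not tested. It measured 9.27 CPM (7.78 to 11) in the 740 cells with a UMI of Sox2, a transcription factor gene of the prosensory domain and its supporting cells, against 2.02 CPM (1.58 to 2.56) in cells without. It measured 12.2 CPM (9.96 to 14.9) in the 668 cells with a UMI of Tectb, a tectorial membrane gene, against 2.61 CPM (2.13 to 3.15) in cells without. The same splits gave 6.57 against 3.96 CPM for Sox2 and 9.04 against 4.19 CPM for Tectb on day 5. In expansion the order was the other way, at 9.73 against 12.6 CPM for Sox2 and 10.3 against 12.5 CPM for Tectb, with overlapping intervals in both splits.

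Ntrk2 gave more UMIs than any other of the 7 genes in other Epcam-positive cells of day 5 and day 25. Pou4f3-positive cells had 5.69 CPM in expansion, 30.6 CPM (25.6 to 36.3) on day 5 and 22.8 CPM (20.7 to 25.2) on day 25. Otor-high cells had 52.0, 118 and 274 CPM, and other Epcam-positive cells had 8.41 CPM (7.92 to 8.93), 164 CPM (161 to 166) and 211 CPM (207 to 215). Day 5 was 19.4-fold above expansion in other Epcam-positive cells (18.3 to 20.7) and 2.26-fold above it in Otor-high cells (2.06 to 2.49). Pou4f3-positive cells had less than other Epcam-positive cells by 5.35-fold on day 5 (4.50 to 6.41) and 9.23-fold on day 25 (8.36 to 10.2). On day 5 and day 25 Bdnf was highest and Ntrk2 lowest in Pou4f3-positive cells, and on day 25 both were higher in Otor-high than in other Epcam-positive cells. Full-length TrkB and the truncated form without a kinase cannot be told apart by these counts.

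Within the Pou4f3-positive cells, the Ntrk2 level was lower in cells with a UMI of Atoh1 on day 5 and of Slc26a5 on day 25. On day 5 Ntrk2 had 12.9 CPM (9.11 to 17.8) in cells with a UMI of Atoh1 and 66.9 CPM (54.0 to 82.0) in cells without. On day 25 it had 18.7 CPM (16.6 to 21.0) in cells with a UMI of Slc26a5, from 289 UMIs, and 46.9 CPM (39.0 to 55.9) in cells without, from 124 UMIs. Cells without a Slc26a5 UMI were shallower, as given for Bdnf, and the part of depth was not tested. On day 25 a single cell held 51 of the 412 Ntrk2 UMIs found in cells of at least 2000 UMIs. A threshold of 1 Pou4f3 UMI gave 84.1 CPM on day 5 and 47.6 CPM on day 25, and ended the 2-fold call of day 5, while a threshold of 4 gave 20.8 and 18.5 CPM.

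Within the epithelium Ntrk2 was lower beside Lgr5 in each library, in splits where the part of depth was not tested. On day 25 it measured 94.4 CPM (85.2 to 104) in cells with a UMI of Lgr5 and 221 CPM (217 to 226) in cells without. The same split gave 133 against 167 CPM on day 5 and 5.34 against 11.1 CPM in expansion. Cells with a UMI of Bmp4, a gene of the lateral epithelium, had 90.6 CPM (84.1 to 97.4) on day 25, against 234 CPM (230 to 239) in cells without. Cells with a UMI of Tectb had 274 CPM (263 to 286), against 198 CPM (194 to 202) in cells without.

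Clusters of all kept cells, made without the 7 genes, split the day 25 epithelium further. Ntrk2 reached 395 CPM (386 to 405) in 1221 cells led by Prss22, Lncpint and Otol1 and 318 CPM (305 to 333) in 620 cells led by Tectb, Cytl1 and Nptx2. It was at 72.5 CPM (67.5 to 77.9) in 874 cells led by Car3, Chac1 and Scg2, which had the highest Ntf3 of these clusters at 11.9 CPM (9.92 to 14.2), and at 8.11 CPM (6.07 to 10.6) in 461 cells led by Sfn, Olr1 and Areg. The 632 cells led by Apod, a mesenchyme marker, had 288 CPM (273 to 303). Bdnf was at 636 CPM (623 to 648) in the cluster led by Slc26a5 and 91.4 CPM (80.5 to 103) in the cluster led by Ocm and Pcp4, whose cells had a median of 3702 UMIs against 11684. The clusters stay unnamed here.

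**Figure D3:**
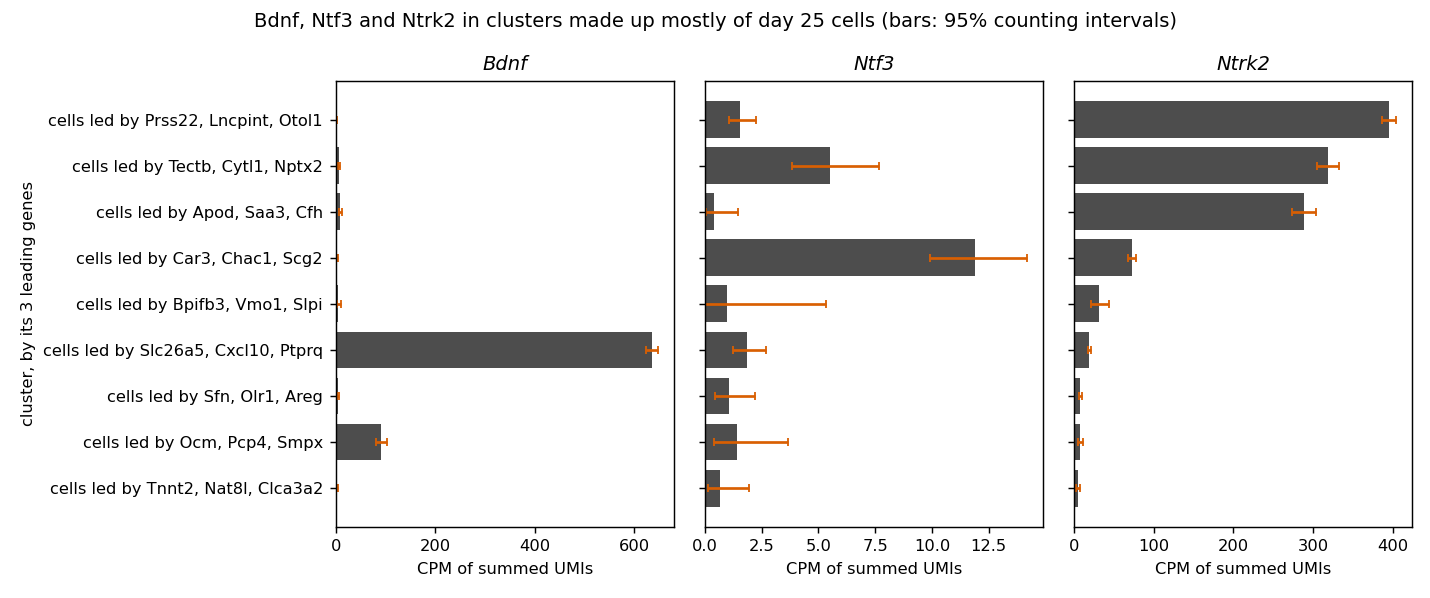
Bdnf, Ntf3 and Ntrk2 in CPM, with 95% counting intervals, in the clusters made up mostly of day 25 cells, each labelled by its 3 leading genes. Bdnf peaks at 636 CPM in the cluster led by Slc26a5, Ntf3 at 11.9 CPM in that led by Car3, and Ntrk2 at 395 CPM in that led by Prss22.

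Ngfr was high only in the expansion library. Pou4f3-positive cells had 25.9 CPM (18.6 to 35.2) there, no UMI on day 5, which allows up to 0.706 CPM, and 1 UMI on day 25. Otor-high cells had 3.56, 0.499 and 0.716 CPM at the 3 stages. Other Epcam-positive cells measured 55.1 CPM (53.8 to 56.4) in expansion, 0.329 CPM (0.222 to 0.470) on day 5 and 0.696 CPM (0.482 to 0.972) on day 25. In these cells day 5 was 167-fold lower than expansion (117 to 248), and day 25 was 79.1-fold lower than expansion (56.6 to 114). The expansion level in Otor-high cells was 6.46% of that in other Epcam-positive cells, and 8 epithelial markers stood at 5.02% to 11.7% there. Ngfr is also a Schwann cell gene. The 12 glia or Schwann cell genes summed to 248 CPM in other Epcam-positive cells of expansion, 388 CPM on day 5 and 265 CPM on day 25. In expansion 9 of the 12 had UMIs there, Foxd3, Cdh19 and Gfra3 were at 0, and Sox10, which otic epithelium also makes, was at 132 CPM. The part of such cells in the Ngfr counts was not tested.

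Within the expansion epithelium Ngfr varied by less than 2-fold across the splits by Lgr5 and by dividing cell genes. It measured 59.4 CPM with and 51.4 CPM without a UMI of Lgr5, and 55.9 CPM with and 52.6 CPM without a UMI of Mki67 or Top2a. A cluster of 1312 cells led by S100a6 and Pglyrp1 had 96.4 CPM (90.7 to 102), and the 5883 cells led by Ivl had 43.8 CPM (41.5 to 46.1).

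Ret gave more UMIs than any other of the 7 genes in other Epcam-positive cells of expansion. Pou4f3-positive cells had 84.1 CPM (70.4 to 99.7) in expansion, 2 UMIs on day 5 and 1 on day 25. Otor-high cells had 11.2 CPM in expansion, 3 UMIs on day 5 and none on day 25, which allows up to 1.07 CPM. Other Epcam-positive cells measured 205 CPM (203 to 208) in expansion, 1.62 CPM (1.37 to 1.91) on day 5 and 1.29 CPM (0.991 to 1.65) on day 25. In these cells day 5 was 127-fold lower than expansion (108 to 150) and day 25 was 159-fold lower than expansion (125 to 207). Pou4f3-positive cells of expansion were 2.44-fold below other Epcam-positive cells (2.06 to 2.92). The Otor-high level of expansion was 5.43% of the epithelial one, and 7 of 8 epithelial markers stood higher there.

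In expansion Ret was present across the epithelium, with a UMI in 60.7% of other Epcam-positive cells. It measured 222 CPM (219 to 225) in cells with a UMI of Mki67 or Top2a and 153 CPM (149 to 157) in cells without. It measured 124 CPM (108 to 142) in cells with a UMI of Tectb and 207 CPM (204 to 209) in cells without. In these splits Ret thus was higher beside genes of dividing cells and lower beside Tectb, and the part of depth was not tested. Clusters led by Cenpf, Ccne2, Ccnb2 and Cdk1 had 240, 193, 193 and 52.7 CPM of Ret, at medians of 10948, 6530, 4442 and 1654 UMIs. Only 11.9% of the cells of the Cdk1-led cluster were other Epcam-positive. The cluster led by Ngfr, Dkk2 and Spock2 had 248 CPM, at a median of 20138 UMIs. Those led by S100a6 and by Ivl had 161 CPM each.

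A single cell carried much of the Ret left on day 5. An Epcam-positive cell of 87010 UMIs held 53 of the 148 Ret UMIs of its class and 12 of the 30 Ngfr UMIs, and the next highest cell held 6 Ret UMIs. It also held 38 of 190 UMIs of Prss56 and 12 of 64 of Bpifb5, and its barcode was not among those of the expansion library. Without it the day 5 level was 1.04 CPM (0.844 to 1.27) for Ret and 0.198 CPM (0.117 to 0.312) for Ngfr, and no 2-fold call ended. What this cell is was not tested.

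Gfra1, whose product pairs with that of Ret, was highest in Otor-high cells. Pou4f3-positive cells had 3.79, 1.88 and 9.90 CPM in expansion, on day 5 and on day 25. Otor-high cells measured 22.6 CPM (19.8 to 25.8), 49.7 CPM (47.2 to 52.3) and 35.8 CPM (29.1 to 43.6), and other Epcam-positive cells 9.0, 1.43 and 2.64 CPM. Otor-high cells stood above other Epcam-positive cells by 34.9-fold on day 5 (29.1 to 42.1) and 13.6-fold on day 25 (10.3 to 17.7). Day 5 was 2.20-fold above expansion in Otor-high cells (1.91 to 2.54) and 6.31-fold below it in other Epcam-positive cells (5.26 to 7.62). In Pou4f3-positive cells day 25 was 5.26-fold above day 5 (2.61 to 12.4), from 179 UMIs against 8. Endothelial markers summed to 614, 683 and 775 CPM in Otor-high cells at the 3 stages, with Cdh5 at 0, 0.632 and 1.07 CPM, and their part in the Gfra1 and Ntrk2 levels was not tested.

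Gdnf was low in each class. Pou4f3-positive cells held no Gdnf UMI in expansion, 2 on day 5 and 1 on day 25. Otor-high cells had 1 UMI in expansion, 1.13 CPM (0.784 to 1.58) on day 5 and 2.86 CPM (1.24 to 5.64) on day 25. Other Epcam-positive cells had 0.215 CPM (0.143 to 0.310), 3.27 CPM (2.91 to 3.66) and 0.594 CPM (0.397 to 0.852), and held 298 of the 350 Gdnf UMIs of day 5. Gdnf never reached 5 CPM in a class and so could not be called different. In other Epcam-positive cells its day 5 level was still 15.2-fold above expansion (10.3 to 23.3), from 298 UMIs against 28. Day 25 was 5.51-fold lower than day 5 there (3.76 to 8.37).

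Ret and Gfra1 stood in opposite order in the Otor-high and other Epcam-positive cells of expansion. Otor-high cells had 11.2 CPM of Ret and 22.6 CPM of Gfra1, and other Epcam-positive cells had 205 CPM of Ret and 9.0 CPM of Gfra1. The cluster led by S100a6 and Pglyrp1, with 93.4% other Epcam-positive cells, had 161 CPM of Ret and 22.5 CPM of Gfra1 (19.8 to 25.5). With each cell thinned to 2000 UMIs, 65 expansion Epcam-positive cells held UMIs of both, where 74.3 would if the genes were detected independently. Ret and Ngfr were found together in 423 of these cells, against 389 by the same reckoning, and Gfra1 and Ntrk2 in 85 day 5 Otor-high cells, against 78.7. The numbers lay near independence, and at this depth most transcripts of a cell are not seen.

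A gene was called different where the ratio of CPM + 1 reached 2-fold, with at least 5 CPM in either sum and 10 UMIs over both. In other Epcam-positive cells 1 of the 7 was higher on day 5 against expansion (Ntrk2) and 4 were lower (Ntf3, Ngfr, Ret and Gfra1), where 14.5% of all genes compared were higher and 10.8% lower. Day 25 against day 5 gave 1 higher (Bdnf) and 0 lower, with 16.8% and 6.72% of all genes. That Bdnf call ended when cells with a single Pou4f3 UMI were left out, at 3.41 against 0.855 CPM, since neither level then reached 5 CPM, and also under TMM scaling. Day 25 against expansion gave 2 higher (Bdnf and Ntrk2) and 4 lower (Ntf3, Ngfr, Ret and Gfra1), with 25.7% and 11.9%, and its Bdnf call ended under both of these and under median of ratios scaling. Both Bdnf calls also ended with 10 Epcam UMIs per 10000 asked for, where Bdnf was at 4.71 CPM on day 25. With a pseudocount of 5 CPM the Ntf3 and Bdnf calls of these 3 comparisons ended, as did that of Gfra1 on day 25 against expansion. In Pou4f3-positive cells Bdnf and Gfra1 were higher on day 25 against day 5, with 17.8% of all genes higher. In Otor-high cells 3 were higher on day 5 against expansion (Bdnf, Ntrk2 and Gfra1) and 1 lower (Ret), with 20.9% and 4.98% of all genes. Ntrk2 alone was higher there on day 25 against day 5 and 0 were lower, with 15.8% and 6.15%. Under TMM or median of ratios scaling the Otor-high calls of Ntrk2 in both comparisons, and of Gfra1 on day 5 against expansion, ended, and with 40 Otor UMIs per 10000 asked for Ret alone was called on day 5 against expansion. Comparisons that share a library are not independent of each other.

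**Figure D4:**
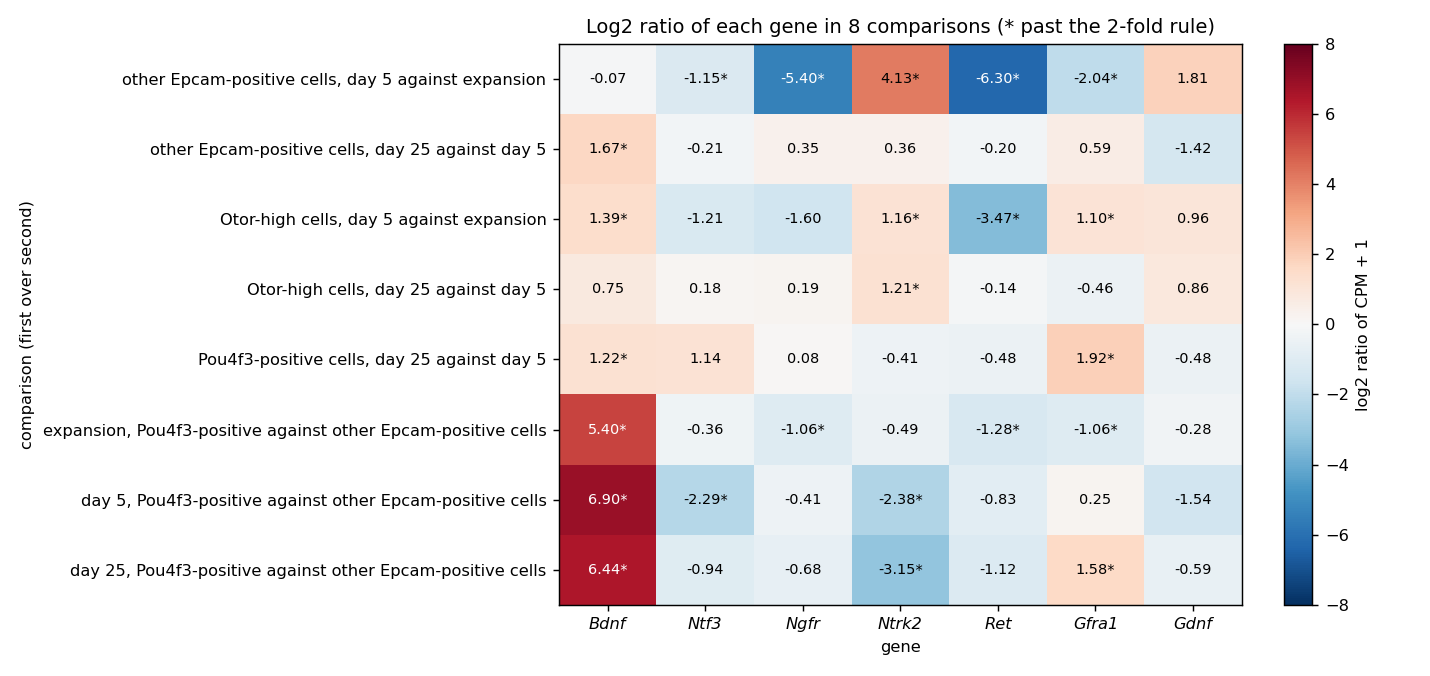
The log2 ratio of CPM + 1 for each gene (columns) in 8 comparisons (rows, first over second), with a star for ratios past the 2-fold rule. In other Epcam-positive cells on day 5 against expansion Ret is at -6.30, Ngfr at -5.40 and Ntrk2 at 4.13, and Bdnf is at 5.40, 6.89 and 6.44 in Pou4f3-positive against other Epcam-positive cells of expansion, day 5 and day 25.

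Between classes, Pou4f3-positive against other Epcam-positive cells gave 1 higher (Bdnf) and 3 lower (Ngfr, Ret and Gfra1) in expansion, with 12.0% of all genes higher and 6.28% lower. The comparison gave 1 higher (Bdnf) and 2 lower (Ntf3 and Ntrk2) on day 5, with 18.8% and 17.4%, and 2 higher (Bdnf and Gfra1) and 1 lower (Ntrk2) on day 25, with 20.5% and 18.8%. The expansion call of Ngfr ended when called doublets were kept, as did the day 5 call of Ntf3, and the expansion calls of Ngfr and Ret ended with a threshold of 1 Pou4f3 UMI. A pseudocount of 5 CPM ended the expansion calls of Ngfr and Gfra1, the day 5 call of Ntf3 and the day 25 call of Gfra1. Otor-high against other Epcam-positive cells gave 2 higher (Ntrk2 and Gfra1) and 3 lower (Ntf3, Ngfr and Ret) in expansion, with 5.23% and 13.9% of all genes. It gave 2 higher (Bdnf and Gfra1) and 1 lower (Ntf3) on day 5, with 11.9% and 12.1%, and 1 higher (Gfra1) on day 25, with 14.1% higher. Over whole libraries 2 were higher (Bdnf and Ntrk2) and 3 lower (Ntf3, Ngfr and Ret) on day 5 against expansion, with 16.7% and 7.91% of all genes, and the same counts were found on day 25 against expansion, with 31.3% and 9.71%. Bdnf alone was higher over whole libraries on day 25 against day 5, at 143 against 10.1 CPM, and 0 were lower, with 19.1% and 6.98% of all genes.

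Shares of cells with a UMI were counted after thinning each cell to 2000 UMIs. Bdnf was detected in 18.2% of Pou4f3-positive cells in expansion (12.6% to 25.1%), 32.5% on day 5 (27.0% to 38.4%) and 49.0% on day 25 (46.4% to 51.6%), and in 0.208%, 0.254% and 1.28% of other Epcam-positive cells. Unthinned, the Pou4f3-positive shares were 44.8%, 61.4% and 73.2%. Ret was detected in 1.91% of Otor-high and 28.9% of other Epcam-positive cells in expansion, and in 6 of 6311 and 12 of 3509 other Epcam-positive cells on day 5 and day 25. Ntrk2 was detected in 2.52%, 3.65% and 2.88% of Pou4f3-positive cells and in 1.63%, 26.5% and 28.0% of other Epcam-positive cells. Gfra1 was detected in 4.41%, 9.37% and 7.74% of Otor-high cells, and Ngfr in 9.68% of other Epcam-positive cells in expansion. Cells too shallow to thin numbered 4, 50 and 43 among Pou4f3-positive, 148, 420 and 6 among Otor-high and 456, 276 and 170 among other Epcam-positive cells.

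**Figure D5:**
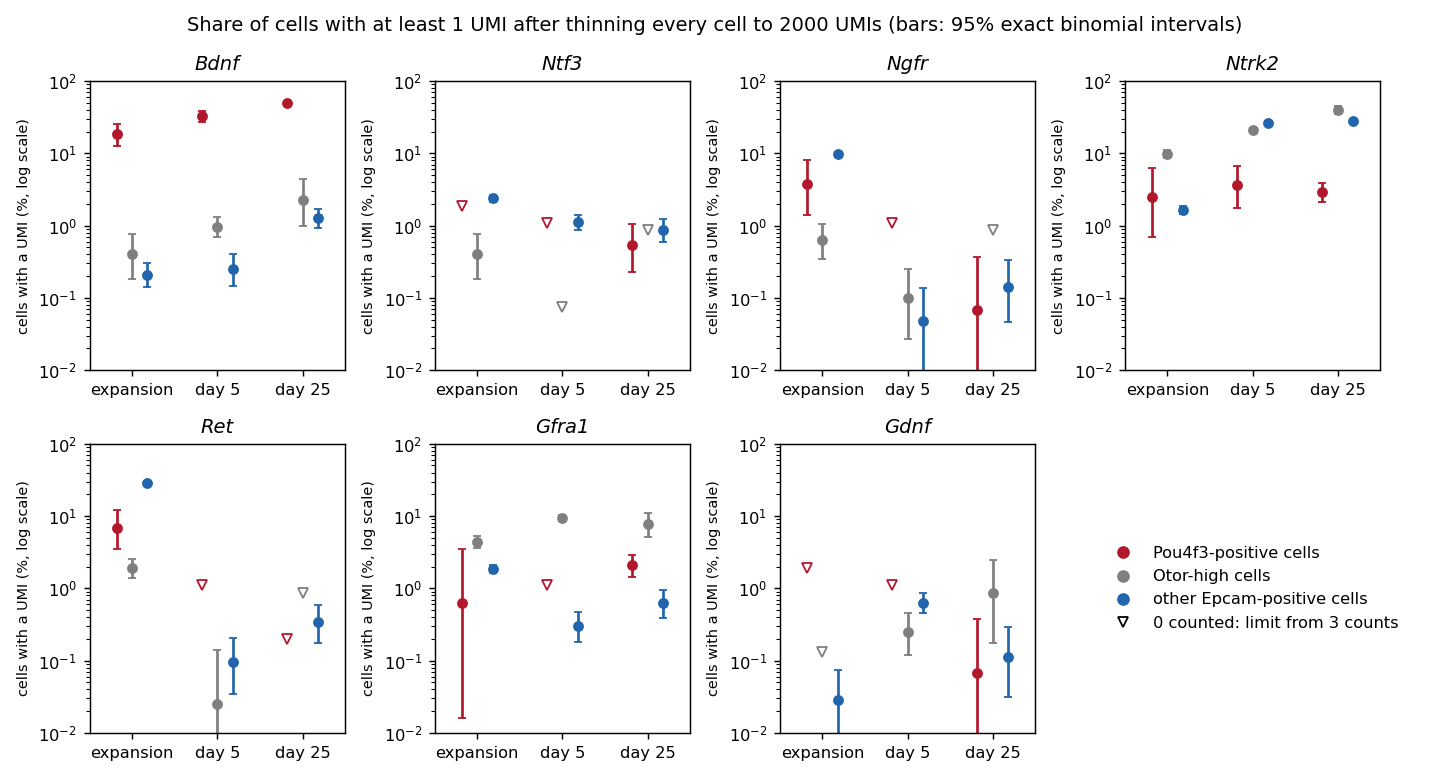
The share of cells with at least 1 UMI of each gene (y axis, %, log scale) after thinning to 2000 UMIs, by class and library, with 95% exact binomial intervals and open triangles for the limit from 3 counts. Bdnf is found in 18.2%, 32.5% and 49.0% of Pou4f3-positive cells, and Ret in 28.9% of other Epcam-positive cells in expansion.

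Other genes of the neurotrophin pathway were sparse. Of 9 such genes 5 passed the filter in other Epcam-positive cells on day 5 against expansion, with 1 higher and 0 lower (median log2 ratio 0.79, against 0.10 over all genes). Of all genes compared there 14.5% were higher and 10.8% lower. The higher one of the list was Ntf5, which encodes neurotrophin-4, another TrkB ligand, at 12 against 2.35 CPM. On day 25 against day 5 Sorcs1 was lower at 3.01 against 8.29 CPM. Ntrk3, which encodes TrkC, had at most 5.06 CPM. Sort1, which encodes the proneurotrophin co-receptor sortilin, lay between 12.8 and 42.0 CPM in every class.

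Of 10 other GDNF family genes 4 passed in those cells on day 5 against expansion, with 2 higher and 2 lower (median log2 ratio 0.35). Of all genes compared there 14.5% were higher and 10.8% lower. Nrtn, which encodes the GDNF relative neurturin, was higher at 77.1 against 21.2 CPM, and Gfra2, which encodes its binding subunit, was lower at 7.46 against 17.3 CPM. Ncam1, an adhesion gene whose product can bind GDNF without Ret, was higher at 64.6 against 15.4 CPM, and Sdc3 was lower. Artn, which encodes artemin, was higher in Pou4f3-positive than in other Epcam-positive cells on day 5 (12.2 against 2.22 CPM) and day 25 (10.5 against 1.04 CPM). Gfra3, which encodes its usual binding subunit, had at most 2 UMIs in a class.

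Of 18 genes known downstream of Ret in the ureteric bud or enteric cells, 14 passed in other Epcam-positive cells on day 5 against expansion, with 1 higher and 8 lower (median log2 ratio -1.13, against 0.10 over all genes). Of all genes compared there 14.5% were higher and 10.8% lower. Cxcr4, a chemokine receptor gene, had 5.99 against 125 CPM, Kcnn4 0.658 against 29.9 CPM and Myb 0.592 against 10.2 CPM. On day 25 against day 5, with Ret at 1.29 against 1.62 CPM, 6 of 12 were higher and 0 lower (median 1.02, against 0.17 over all genes), where 16.8% of all genes were higher and 6.72% lower. Dusp6 had 151 against 33.1 CPM, Spry2 115 against 27.0 CPM and Spred1 76.6 against 26.0 CPM, all feedback genes of the ERK cascade. Many receptor kinases act on the genes of this list.

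Of 22 genes known in neurons to rise after BDNF or TrkB signalling, 16 passed in other Epcam-positive cells on day 5 against expansion, with 12 higher and 1 lower (median log2 ratio 2.16, against 0.10 over all genes). Of all genes compared there 14.5% were higher and 10.8% lower. Fos measured 1880.2 CPM on day 5 against 185 CPM in expansion, Junb measured 1154.5 CPM on day 5 against 84.2 CPM in expansion, and Dusp6 was the gene that was lower. On day 25 against day 5, 15 of 19 were higher and 0 lower (median 1.78, against 0.17 over all genes), where 16.8% of all genes were higher and 6.72% lower. Atf3 had 1378 against 33.1 CPM, Nptx2 51.9 against 3.20 CPM and Dusp5 751 against 72.1 CPM. Otor-high cells had 13 of 16 higher on day 5 against expansion (median 2.07, against 0.41 over all genes), where 20.9% of all genes were higher. They had 13 of 18 higher on day 25 against day 5 (median 1.67, against 0.18), where 15.8% were higher. Pou4f3-positive cells had 11 of 18 higher and 1 lower on day 25 against day 5 (median 1.25, against 0.19), where 17.8% of all genes were higher and 10.0% lower. Against other Epcam-positive cells on day 25 they had 2 higher and 14 lower of 21 (median -2.14, against 0.14), where 20.5% were higher and 18.8% lower. These genes answer to many stimuli, cell dissociation among them, and the part of dissociation was not tested.

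Of 14 genes that process or sort proneurotrophins, 10 passed in Pou4f3-positive against other Epcam-positive cells on day 25, with 5 higher and 3 lower (median log2 ratio 1.08, against 0.14 over all genes). Of all genes compared there 20.5% were higher and 18.8% lower. Cpe, which encodes carboxypeptidase E, measured 1091.5 against 46.0 CPM, Pcsk5, a proprotein convertase gene, 210.2 against 18.6 CPM, and Pcsk1 9.84 against 0.164 CPM. Mmp2, a matrix protease gene, was lower at 1.60 against 38.3 CPM. Of 35 adaptor and partner genes 21 passed in other Epcam-positive cells on day 5 against expansion, with 3 higher, led by Gab1 at 56.6 against 14.9 CPM, and 2 lower. These counts lie near the shares of all genes compared, 14.5% higher and 10.8% lower. Of 33 other receptor tyrosine kinase genes 19 passed in the same comparison, with 8 higher and 3 lower (median log2 ratio 0.84), beside the same shares of all genes. Fgfr1 had 78.1 against 14.4 CPM and Kit 0.669 against 6.05 CPM, so Ntrk2 and Ret were not the only receptor kinase genes that differed.

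For each of the 7 genes the 3 genes most like it were found by Pearson's r of log2(CPM + 1) over the 9 sums of class and library. The 9 points share 3 libraries and the class definitions, so r is a description. Bdnf was nearest to Lrp11 (r = 0.996), Apba1 and Syp, the synaptophysin gene. Ret was nearest to Bpifb5 (r = 0.996), Prss56 and Pglyrp1, and Ngfr to St8sia6 (r = 0.989), Bpifb5 and Pglyrp1, and Ret and Ngfr had r = 0.978 with each other. Ntrk2 was nearest to Fgfr1 (r = 0.965), Islr and Sulf1, and Gfra1 to Etv1 (r = 0.966), Rasa3 and Pbx3. Ntf3 was nearest to Brip1 (r = 0.971), Cpa6 and Fgfrl1, and Gdnf to Wnt9a (r = 0.912), Igf1 and Aga.

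In the GRCm38 annotation Ngfr lies at chr11:95568818-95587735 (minus strand) and Ntrk2 at chr13:58806569-59133970 (plus strand). Ret (chr6:118151745-118197718) and Ntf3 (chr6:126101412-126166910) are both on the minus strand of chromosome 6. Gfra1 lies at chr19:58235604-58455909 (minus strand) and Gdnf at chr15:7810846-7837575 (plus strand). Bdnf, Ntrk2 and Gfra1 overlap antisense genes of the count table with few counts of their own. Gm45346 had at most 44 UMIs in a library beside 10328 of Bdnf, Gm47423 at most 35 beside 19393 of Ntrk2, and Gm16277 at most 2 beside 1787 of Gfra1.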

How the data were processed

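Single-cell libraries (10x 3′ chemistry) of 3 groups, 1 library each, were analysed. The deposited files hold UMI counts per gene and cell barcode, written by Cell Ranger, whose version was 3.1.0 in the day 25 matrix and 3.0.1 in the other two, per the file headers. Builds GRCm38 and hg38 appear in the submitters' processing notes, and the annotation release is not given in the sources used here. Barcodes with at least 500 genes and at most 20% mitochondrial UMIs were kept, and doublets called by scrublet (scanpy 1.11.5) were left out.

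Pou4f3-positive cells were not Otor-high, other Epcam-positive cells had at least 2 Epcam UMIs and 3 per 10000, and Otor-high cells were not Epcam-positive. UMIs were summed per class and library. Ratios have exact conditional 95% intervals, and shares exact Clopper-Pearson intervals. A count of 0 is given with the limit from 3 UMIs. Alternatives used TMM factors (edgeR 4.0.16) and median of ratios factors (DESeq2 1.42.0). No test was run, since cells are not replicates. The 2-fold rule, applied to simulated counts for the 15 comparisons, called 1003 of 1005 genes changed 3-fold, 7 of 1005 changed 1.5-fold and 85 of 151074 unchanged genes. The simulated counts held counting error only, with no difference between libraries. The changed genes were drawn from genes above a level that Ntf3 and Gdnf did not reach in any class. These rates thus do not cover low genes or differences between libraries. Genes beside the 7 were named by rule: up to 3 called genes per list and direction with the largest difference, some listed ligands and receptors, and the 3 nearest in pattern. The 7 genes and the lists were chosen with earlier results of these data known. Promoter windows came from RefSeq (GRCm38.p6), and 6 of the 7 genes matched. Values of a few genes of the fixed lists are not reported here.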

Additional observations from a re-analysis of the deposited data

Results flagged for a closer look

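The change of Gfra1 differed in sign between classes. On day 5 against expansion its log2 ratio was -2.04 in other Epcam-positive cells and 1.10 in Otor-high cells, a difference of -3.15. This was picked out because 2 cell classes moved in opposite directions under the same contrast, and the difference was not tested.

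Gfra1 also differed in sign between stages. Pou4f3-positive against other Epcam-positive cells gave a log2 ratio of 1.58 on day 25 and of -1.06 in expansion, a difference of 2.64. This too was picked out for opposite directions and was not tested, and the expansion value rests on 6 Gfra1 UMIs in Pou4f3-positive cells. A pseudocount of 5 CPM ended both calls.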

How the results depend on the processing

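No paired analysis was possible because each group was 1 library, and no replicate could be left out. Of 140 counts of called genes under other settings 116 stayed within 1.5 times the reported count, and no value past the 2-fold rule changed sign. Some values short of it did, such as Bdnf in other Epcam-positive cells, day 5 against expansion, at 0.987 against 1.09 CPM as reported and 1.09 against 1.04 CPM with all deposited barcodes. The others were as follows. Over whole libraries, day 25 against day 5 (1 called), 2 were called under TMM scaling, under median of ratios scaling and with no filter beyond 1 UMI. In other Epcam-positive cells, day 25 against day 5 (1 called), 0 were called under TMM scaling, a pseudocount of 5 CPM, thresholds of 1 or of 4 Pou4f3 UMIs or of 10 Epcam UMIs per 10000, and 2 with no filter. On day 25 against expansion there (6 called), 3 were called with a pseudocount of 5. In Otor-high cells, day 5 against expansion (4 called), 2 were called under TMM, median of ratios scaling and a pseudocount of 5, and 1 with 40 Otor UMIs per 10000 asked for. On day 25 against day 5 (1 called), 0 were called under either scaling. For Pou4f3-positive against other Epcam-positive cells of expansion (4 called), 2 were called with a pseudocount of 5 and with 1 Pou4f3 UMI. For Otor-high against other Epcam-positive cells of day 5 (3 called), 1 was called with a pseudocount of 5 and 5 with no filter. On day 25 (1 called), 4 were called with no filter and 2 with 1 or 4 Pou4f3 UMIs or 10 Epcam UMIs per 10000. The cause was not tested, except that a larger pseudocount shrinks the ratios of low genes and the filter removes them. Leaving out the day 5 cell with 53 Ret UMIs, an alternative chosen after seeing the data, changed 0 calls. Depth limits Gdnf in Pou4f3-positive and Otor-high cells and Ret and Ngfr after expansion. In other Epcam-positive cells Gdnf was left uncalled by the filter of 5 CPM.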
